A study of Homo sapiens with 8 samples.

Results

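The Nodal pathway was followed through 10 of its genes in human embryonic stem cells that were being turned towards posterior neural fate while the receptor inhibitor SB was present. The 10 genes were chosen by name and cover ligands (NODAL, GDF3), the co-receptor TDGF1, receptors (ACVR1B, ACVR2A, ACVR2B), secreted antagonists (LEFTY1, LEFTY2, CER1) and the intracellular inhibitor SMAD7. Each had its own row, out of 35940 gene symbols measured. The cells were ESI017, an established human embryonic stem cell line of wild-type genotype. All libraries came from cells in N2B27, a serum-free medium used for neural induction, with 10 uM SB and 100 nM LDN. Recombinant WNT3A at 300 ng/mL was added 34 h after differentiation began, and poly(A) RNA was sequenced at 34 h, taken here as 0 h of WNT3A although the labels do not say whether harvest came before the addition, and at 42, 50 and 72 h, which are 8, 16 and 38 h of WNT3A. Each of the 4 time points had 2 libraries, replicates 1 and 2, which the labels also call batches 1 and 2. Nothing in the labels says that the replicates were more than parallel cultures of 1 line, so the tests measure the spread between these libraries only. SB and LDN were shared by all groups, so the effect of SB itself was not measured here, and every later group had received WNT3A, so elapsed time and WNT3A cannot be told apart.

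NODAL lies at chr10:70432315-70447951 on the minus strand and TDGF1 at chr3:46574534-46582463 on the plus strand (GENCODE, GRCh38), and both are protein coding, like the other 8 members. Nodal is a secreted ligand of the TGF-beta family. It binds type II receptors such as ACVR2A and ACVR2B together with the type I receptor ACVR1B, and needs an EGF-CFC co-receptor such as TDGF1 (also called CRIPTO) at the cell surface. The active receptor phosphorylates SMAD2 and SMAD3, which join SMAD4 and act with FOXH1 on target genes, among them NODAL itself and its antagonists LEFTY1, LEFTY2 and CER1. The pathway is known for keeping human embryonic stem cells pluripotent and for forming the primitive streak and endoderm in the embryo, and inhibitors of its receptors are widely used to direct such cells to neural fates.

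The 250 bases before the annotated start of 3 members are printed here because their transcripts took 3 different courses: NODAL was raised after WNT3A, GDF3 was lost, and CER1 was at or near 0 throughout. They are RefSeq sequences on GRCh38.p14, all on the minus strand and printed in the direction of transcription, at chr10:70441682-70441931 for NODAL, chr12:7695776-7696025 for GDF3 and chr9:14722734-14722983 for CER1. The NODAL window lies within the longer span that GENCODE gives the gene. Capitals mark matches, on either strand, to CTTTG (the core of TCF/LEF sites, through which WNT signals act on genes), AATNCACA (FOXH1) and CAGAC (SMAD).
NODAL: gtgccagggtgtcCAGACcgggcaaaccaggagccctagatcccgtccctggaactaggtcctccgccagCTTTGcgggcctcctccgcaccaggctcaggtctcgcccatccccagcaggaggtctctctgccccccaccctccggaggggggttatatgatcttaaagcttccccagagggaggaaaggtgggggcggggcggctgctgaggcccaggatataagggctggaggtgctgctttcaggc
GDF3: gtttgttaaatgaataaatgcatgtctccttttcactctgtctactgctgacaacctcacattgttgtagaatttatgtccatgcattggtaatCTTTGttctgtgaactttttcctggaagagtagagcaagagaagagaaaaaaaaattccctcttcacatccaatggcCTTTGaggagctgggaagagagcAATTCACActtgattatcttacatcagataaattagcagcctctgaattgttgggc
CER1: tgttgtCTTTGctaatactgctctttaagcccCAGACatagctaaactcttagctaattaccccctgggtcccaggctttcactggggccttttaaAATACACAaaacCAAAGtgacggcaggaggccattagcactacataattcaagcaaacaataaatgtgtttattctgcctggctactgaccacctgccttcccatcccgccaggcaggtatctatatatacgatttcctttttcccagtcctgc
The NODAL window held 1 match to CTTTG, which began 180 bases before the start, 1 match to CAGAC, which began 237 bases before it, and no match to AATNCACA. The GDF3 window held 2 matches to CTTTG, 1 to AATNCACA and none to CAGAC. The CER1 window held 2 matches to CTTTG, 1 to AATNCACA and 1 to CAGAC. None of the 3 held ATCAAAG, a longer TCF/LEF motif whose last letters overlap the reverse complement of CTTTG. Over all 35116 promoter windows of 250 bases in the same RefSeq set, 42.1% held CTTTG, 38.0% held CAGAC, 2.89% held AATNCACA and 2.26% held ATCAAAG. The matches are a description of these letters and not evidence of binding. Windows were found for 7 of the 10 members.

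Levels are given in TPM, a share of all transcripts corrected for gene length, so that they can be compared between genes. TPM keeps no record of read number: the depth is unknown, no counting interval was computed, and 0 means listed at 0. The number of genes at 1 TPM or more ranged from 13860 to 14004 per library. The cells were labelled pluripotent: the summed level of 7 pluripotency markers lay in the range 2783 to 2814 TPM at 34 h and 1933 to 2041 TPM by 72 h, while that of 5 neural progenitor markers was 346 to 363 TPM and 604 to 644 TPM at those times. SOX2, at means of 217 and 340 TPM, counts in both sums. At 34 h POU5F1 (1159 TPM), LIN28A (902 TPM) and DPPA4 (383 TPM) made up most of the first sum. NANOG was then at 2.03 TPM. At 72 h POU5F1 and DPPA4 were lower (371 and 165 TPM) and LIN28A was higher (1024 TPM). SOX2 and NES (135 and 229 TPM) made up most of the second sum. SOX1 went from 1.89 to 50.8 TPM, PAX6 from 0.154 to 3.80 TPM and HES5 from 0.162 to 0 TPM. Genes were tested on log2(TPM + 1) with limma when they had at least 1 TPM in at least 2 libraries, which kept 14908 genes and 7 of the 10 members. The threshold for a call was an adjusted p (Benjamini-Hochberg over all tested genes) under 0.05. In RNA from a whole culture, fewer cells that express a gene and less of its RNA per cell cannot be told apart.

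NODAL, the ligand, was nearly silent at 34 h, rose by 8 h after WNT3A was added and was at its lowest at 72 h. Its level was 0.572 and 0.449 TPM (34 h), 8.32 and 7.84 TPM (42 h), 2.10 and 1.16 TPM (50 h) and 0.417 and 0.361 (72 h). Both 42 h libraries were above all 6 others, and both 50 h libraries lay between those of 42 h and 34 h. The mean at 42 h was 15.8 times that at 34 h. The log2 change was 2.59 ± 0.25 (SE; 95% interval 2.02 to 3.15; limma adjusted p = 0.00124), and it was 2.57 within replicate 1 and 2.61 within replicate 2. Since the scale adds 1 TPM, it understates the change of a gene this low, and with 0.1 TPM added the log2 change was 3.75. NODAL reached 1 TPM in the 42 h and 50 h libraries alone and passed the filter through them; without the filter its adjusted p was 0.00604. NODAL was the 1 member called between 34 and 42 h of the 7 tested, where 2.58% of all tested genes were called and 1.78% were raised.

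The later decline of NODAL was not called. From 42 to 50 h the log2 change was -1.81 ± 0.25 (SE; limma adjusted p = 0.0511), from a mean of 8.08 TPM to 1.63 TPM, and the libraries of the 2 time points did not overlap. It was called in 2 of 17 alternatives, with libraries rescaled by a trimmed mean of log ratios (0.0481) and with no variance trend (0.0338), and the adjusted p over all 17 ran up to 0.359. None of the 7 tested members was called from 42 to 50 h by limma, where 0.0939% of all tested genes were called, 0.0604% raised and 0.0335% lowered. NODAL and TDGF1 were the 2 tested members with an unadjusted p under 0.05 there. From 50 to 72 h the change of NODAL was -0.90 (adjusted p = 0.0680), and with 0.1 TPM added it was -1.77 (adjusted p = 0.0414; 0.0355 to 0.234 over 17 alternatives, 2 of them called). Between the ends of the course, 34 and 72 h, NODAL differed by -0.12 with a 95% interval of -0.69 to 0.45 (adjusted p = 0.765).

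The summed primitive streak markers were also higher at 42 h than at 34 h, and their part in the rise of NODAL was not tested. The sum of the 6 markers was 1.76 to 2.13 TPM (34 h), 11.5 to 15.7 TPM (42 h), 9.86 to 12.9 TPM (50 h) and 3.16 to 3.56 TPM (72 h), so that its 42 h and 50 h libraries overlapped while those of NODAL did not. Of the 6, TBXT was the 1 called raised from 34 to 42 h, where 1.78% of all tested genes were raised, and 3 were not tested. TBXT, which marks the primitive streak, made up most of the sum at 42 and 50 h. Its means were 0.994, 9.65, 8.23 and 1.74 TPM at the 4 time points. As a share of its own highest mean, NODAL stood at 6.32% at 34 h, 20.2% at 50 h and 4.81% at 72 h. TBXT stood at 10.3%, 85.3% and 18.1% at those times. NODAL had thus lost more of its peak than TBXT by 50 h in these means, a difference that was not tested. EOMES, also of the 6, stood at 6.26%, 39.7% and 0% at 34, 50 and 72 h. Its libraries of 42 h (1.33 and 1.21 TPM) and 50 h (0.416 and 0.590 TPM) did not overlap. MIXL1, highest at 50 h, stood at 6.79%, 90.6% and 19.0% at 34, 42 and 72 h. Of the other markers in that list, MESP1 did not exceed 0.264 TPM and GSC did not exceed 0.516 TPM in any library, and TBX6 was highest at 72 h, at 1.00 and 1.07 TPM.

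GDF3, a related ligand that also signals through TDGF1, was low at the start and listed at 0 at the end. It stood at 1.50 and 1.82 TPM (34 h), 0.714 and 0.434 TPM (42 h) and 0.996 and 0.436 TPM (50 h), and was listed at 0 in both libraries of 72 h. Both 34 h libraries were above all others, while those of 42 and 50 h overlapped. From 34 to 72 h the change in log2(TPM + 1) was -1.41 ± 0.28 (SE; limma adjusted p = 0.00906); no fold is given against a group listed at 0. The size depends on the added value, and with 0.1 TPM added it was -4.13. The call ended without replicate 2 of 34 h (adjusted p = 0.0631). GDF3 reached 1 TPM in the 34 h libraries alone and passed the filter through them, so a tested change could hardly be other than a fall.

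**Figure D1:**
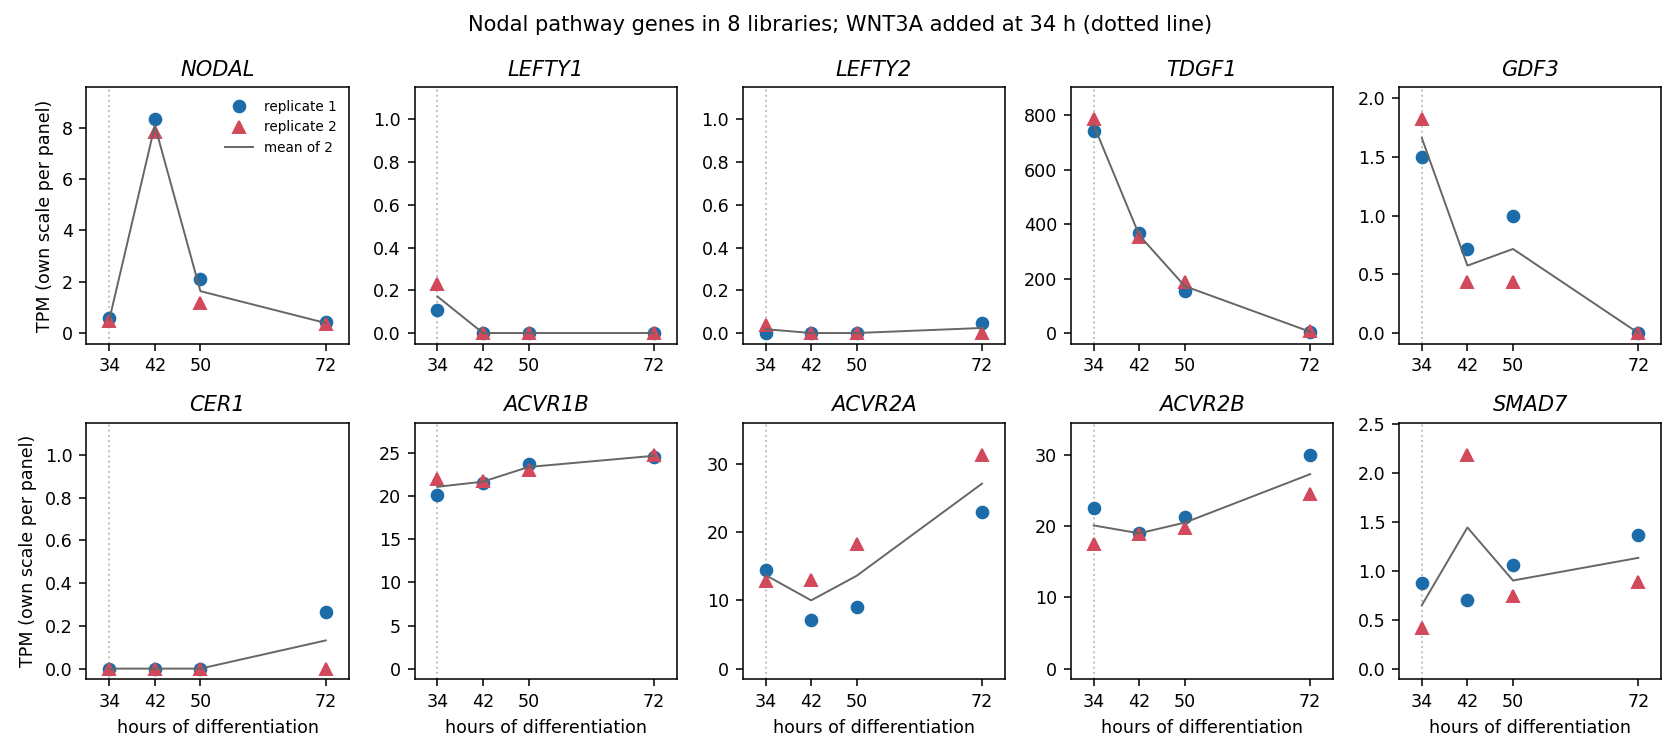
TPM of the 10 members in each library (linear axis from 0, own scale in each panel) against hours of differentiation. Circles are replicate 1, triangles replicate 2, the line joins the means and the dotted line marks 34 h, when WNT3A was added. NODAL peaks at 42 h at 8.32 and 7.84 TPM, TDGF1 falls from 743 and 785 TPM to 2.94 and 6.13 TPM, the 3 receptors stay between 7.06 and 31.3 TPM, and LEFTY1, LEFTY2 and CER1 stay at or near 0.

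TDGF1, the co-receptor that Nodal and GDF3 need, was the most abundant member up to 50 h and had the largest fall on the log2(TPM + 1) scale. It was at 743 and 785 TPM (34 h), 366 and 352 TPM (42 h), 156 and 189 TPM (50 h) and 2.94 and 6.13 (72 h). No library of one time point overlapped with those of another, and each later time point was lower. Ranked by TPM, TDGF1 was gene 172 to 176 at 34 h and gene 10339 to 11951 at 72 h. The log2 change from 34 to 50 h was -2.15 ± 0.24 (SE; limma adjusted p = 0.00150), that from 50 to 72 h was -5.03 (adjusted p = 6.01e-05) and that over the whole course was -7.17 (adjusted p = 2.17e-06).

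The first step of that fall, from 34 to 42 h, was not called. The log2 change was -1.09 and the mean went from 764 to 359 TPM (limma adjusted p = 0.0595). With the replicate number as a block it was called (adjusted p = 0.0349). It was also called without replicate 1 of 72 h (0.00518) or without replicate 2 of 72 h (0.00529), which differed from each other by more, on the log scale, than the libraries of the other time points and enter the shared estimate of the spread. Over 18 alternatives 5 gave a call, and the adjusted p ran up to 0.292, without replicate 2 of 34 h. The change from 42 to 50 h was -1.06 (adjusted p = 0.193). TDGF1 was the 1 member called from 34 to 50 h, where 6.26% of all tested genes were called and 2.74% were lowered. It was also the 1 member called from 50 to 72 h, where 7.33% were called and 4.41% were lowered. From 34 to 72 h the members called were GDF3 and TDGF1, 2 of the 7 tested and both lowered, against 24.0% of all tested genes called and 11.3% lowered.

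TDGF1 has processed pseudogenes, and 50.6% of the 31-base stretches of its transcripts also occur in another gene, most of them in TDGF1P3. Reads from such stretches could be shared out between the rows. The pseudogene rows summed to between 0.619 and 5.60 TPM per library, which was 0.327% to 1.46% of TDGF1 and pseudogenes together up to 50 h. At 72 h it was 29.7% in replicate 1 and 16.4% in replicate 2. TDGF1P3 was at 0 and 0.310 TPM in these libraries, and TDGF1P5 (0.946 and 0 TPM) and TDGF1P7 (0.295 and 0.892 TPM) made up the rest. The stretches that TDGF1 shares with those rows were not counted apart. The lowest values of TDGF1 may thus be the least certain, while the fall is far larger than all pseudogene rows.

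Some pluripotency markers fell over the same course as TDGF1, and their part in its fall was not tested. From 34 to 72 h 3 of 7 were lowered (DPPA4, POU5F1 and ZFP42), SOX2 was raised (0.64; limma adjusted p = 0.00117) and 3 were not called. Over all tested genes 11.3% were lowered and 12.7% raised. POU5F1, a core pluripotency factor, had means of 1159, 1038, 867 and 371 TPM at the 4 time points. TDGF1 kept 47.0%, 22.6% and 0.594% of its 34 h mean at 42, 50 and 72 h. LIN28A was between 897 and 1165 TPM in every library. PRDM14 was lowered from 34 to 42 h (-1.37; adjusted p = 0.00369) and raised from 50 to 72 h (1.24; adjusted p = 0.00380), with a mean of 22.1 TPM at 34 h and 26.6 TPM at 72 h. By correlation of log2(TPM + 1) over the 8 libraries, the 3 genes most like TDGF1 among the 14907 other tested genes were CHGA (Pearson r = 0.999), GLB1L3 (0.999) and POU5F1 (0.997). For NODAL they were ALDH3A2 (0.991), DKK4 (0.981) and PAPPA (0.970). DKK4, a secreted WNT antagonist, had means of 0.0503, 4.84, 0.406 and 0 TPM at the 4 time points. The 8 libraries share 4 time points, so these are descriptions of a common course and carry no test.

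**Figure D2:**
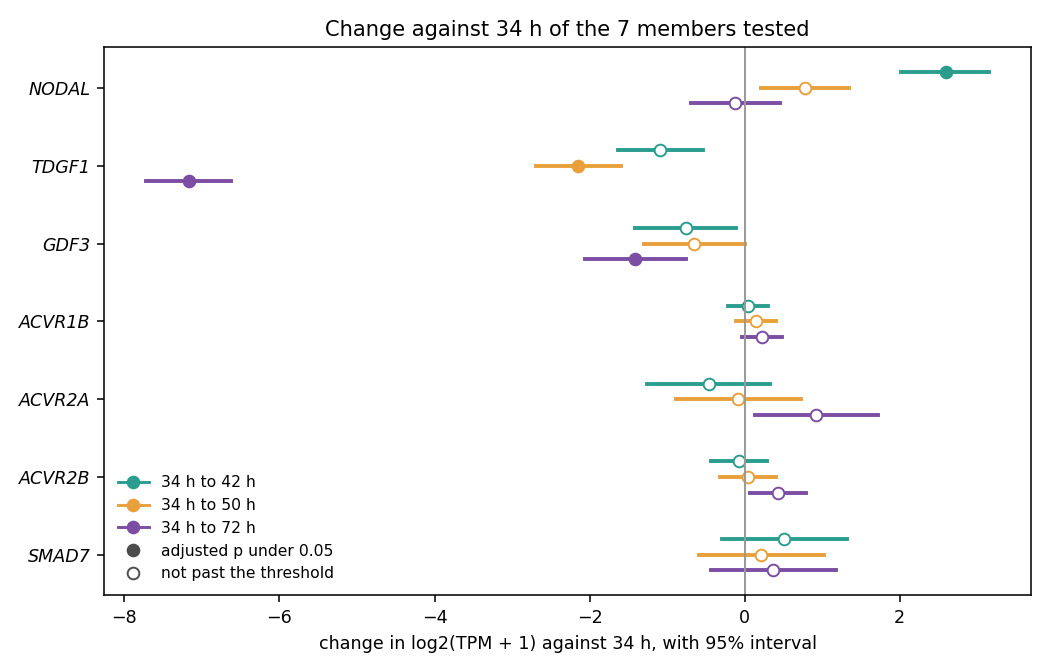
Change in log2(TPM + 1) against 34 h, with 95% interval, at 42, 50 and 72 h for the 7 members that passed the filter. NODAL is raised at 42 h (2.59) and TDGF1 lies at -1.09, -2.15 and -7.17, while the 3 receptors lie between -0.46 and 0.92; filled points have an adjusted p under 0.05 and open points do not.

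The receptors were present at moderate levels in every library, and none of their changes was called. ACVR1B, the type I receptor whose kinase carries the Nodal signal, was at 20.1 and 22.0 TPM (34 h), 21.6 and 21.8 TPM (42 h), 23.8 and 23.0 TPM (50 h) and 24.6 and 24.8 (72 h). Its range over the course was narrow, though both 72 h libraries were above all others. The log2 change from 34 to 72 h was 0.22 with a 95% interval of -0.03 to 0.48 (limma adjusted p = 0.188). ACVR2B, a type II receptor that also binds activins, was at 22.6 and 17.5 TPM (34 h), 19.0 and 18.9 TPM (42 h), 21.3 and 19.8 TPM (50 h) and 30 and 24.5 (72 h). Its 72 h libraries were both above the rest, but the change from 34 h, 0.43 with an interval of 0.07 to 0.79, was not called (adjusted p = 0.0840).

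ACVR2A, the other type II receptor, varied most between replicates among the 3 receptors. It was at 14.5 and 12.8 TPM (34 h), 7.06 and 13.0 TPM (42 h), 8.98 and 18.2 TPM (50 h) and 22.9 and 31.3 (72 h). Replicate 2 was well above replicate 1 at 42, 50 and 72 h, and both 72 h libraries were above all others. The log2 change from 34 to 72 h was 0.92 with an interval of 0.13 to 1.72 (limma adjusted p = 0.0910), and with the replicate number as a block it was called (adjusted p = 0.0361). It was also called without replicate 1 of 50 h (0.0479) or without replicate 2 of 50 h (0.0488). Over 18 alternatives 4 gave a call, and the adjusted p ran up to 0.337, without replicate 2 of 72 h. From 34 to 42 h the changes of the 3 receptors were 0.04 for ACVR1B, -0.46 for ACVR2A and -0.07 for ACVR2B, none of them called. That of ACVR2A was -0.07 without replicate 1 of 42 h and -0.86 without replicate 2 of 42 h.

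The secreted antagonists, which Nodal signalling normally induces, were at or near 0 at all times. LEFTY1 was at 0.110 and 0.231 TPM at 34 h and listed at 0 in the 6 later libraries. LEFTY2 was at 0.0358 TPM in replicate 2 of 34 h and 0.0472 TPM in replicate 1 of 72 h, and listed at 0 in the other 6. CER1, which binds Nodal outside the cell, was at 0.264 TPM in replicate 1 of 72 h and listed at 0 in the other 7. At 42 h, when NODAL stood at 8.32 and 7.84 TPM, all 3 were listed at 0 in both libraries. None passed the filter. Without the filter, none of the 3 had an adjusted p under 0.05 in any of the 5 contrasts (lowest 0.0847, LEFTY1 from 34 to 72 h; limma), and LEFTY1 had an unadjusted p of 0.0155 there.

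LEFTY1 and LEFTY2 are near copies of each other, so reads could have been split between them: 49.1% of the 31-base stretches of LEFTY1 and 29.9% of those of LEFTY2 also occur in another gene. Their sum did not exceed 0.267 TPM in any library. The row AL117348.2, which shares the most with LEFTY1, did not exceed 0.0621 TPM.

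SMAD7, the inhibitory SMAD that TGF-beta family signals induce and that blocks their receptors, was low throughout. It was at 0.877 and 0.418 TPM (34 h), 0.705 and 2.18 TPM (42 h), 1.06 and 0.740 TPM (50 h) and 1.36 and 0.885 (72 h). The 42 h libraries differed the most, with the lower of them inside the range of 34 h and the higher above all other libraries. The log2 change from 34 to 42 h was 0.51 with an interval of -0.29 to 1.32 (limma adjusted p = 0.623). It was 0.06 without replicate 2 of 42 h and 0.96 without replicate 1 of 42 h. SMAD7 was not called in any of the 5 contrasts.

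The order of levels among the members changed over the course. At 34 h TDGF1 came first at a mean of 764 TPM, followed by ACVR1B (21.1 TPM) and ACVR2B (20.1 TPM), whose libraries overlapped, then ACVR2A (13.7 TPM), GDF3 (1.66 TPM), and SMAD7 (0.648 TPM) and NODAL (0.511 TPM), which overlapped, with LEFTY1, LEFTY2 and CER1 last. At 42 h NODAL (8.08 TPM) had passed GDF3 and SMAD7, and its libraries overlapped with those of ACVR2A (10.0 TPM). At 72 h the 3 receptors were the highest members, at 27.3 TPM for ACVR2B, 27.1 TPM for ACVR2A and 24.7 TPM for ACVR1B, with overlapping libraries. TDGF1 (4.54 TPM), SMAD7 (1.13 TPM) and NODAL (0.389 TPM) came next without overlap. Over the whole course, limma's F-test called 3 of the 7 tested members, against 17.4% of all tested genes: NODAL (adjusted p = 0.000613), TDGF1 (1.03e-05) and GDF3 (0.0445). GDF3 was not called with the replicate number as a block, with Ensembl rows kept apart, or without any 1 of the libraries of 34, 42 and 72 h.

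A further 38 genes of the Nodal, activin and TGF-beta pathway were read from a list, and 32 of them passed the filter. From 34 to 42 h 5 rose and none fell, from 34 to 50 h 5 rose and 1 fell, and from 34 to 72 h 6 rose and 5 fell. The median log2 changes of the tested genes were 0.11, 0.11 and 0.07, beside 0.01, 0.04 and 0.06 over all tested genes. Over all tested genes, 1.78% were raised and 0.792% lowered from 34 to 42 h, 3.52% and 2.74% from 34 to 50 h, and 12.7% and 11.3% from 34 to 72 h, so that the 72 h counts, 6 and 5 of 32, lay not far from the share over all genes. From 42 to 50 h 1 pathway gene rose and none fell, where 0.0604% of all tested genes were raised and 0.0335% lowered, with a median of -0.06 beside 0.03. From 50 to 72 h 2 rose and 5 fell, where 2.92% of all tested genes were raised and 4.41% lowered, with a median of -0.15 beside 0.01. Some of these genes, such as EOMES, MIXL1 and LHX1, reached 1 TPM at some time points only and passed the filter through them. Of the 30 calls over the 5 contrasts, 9 held with each library left out in turn and 21 were lost without at least 1 library.

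**Figure D3:**
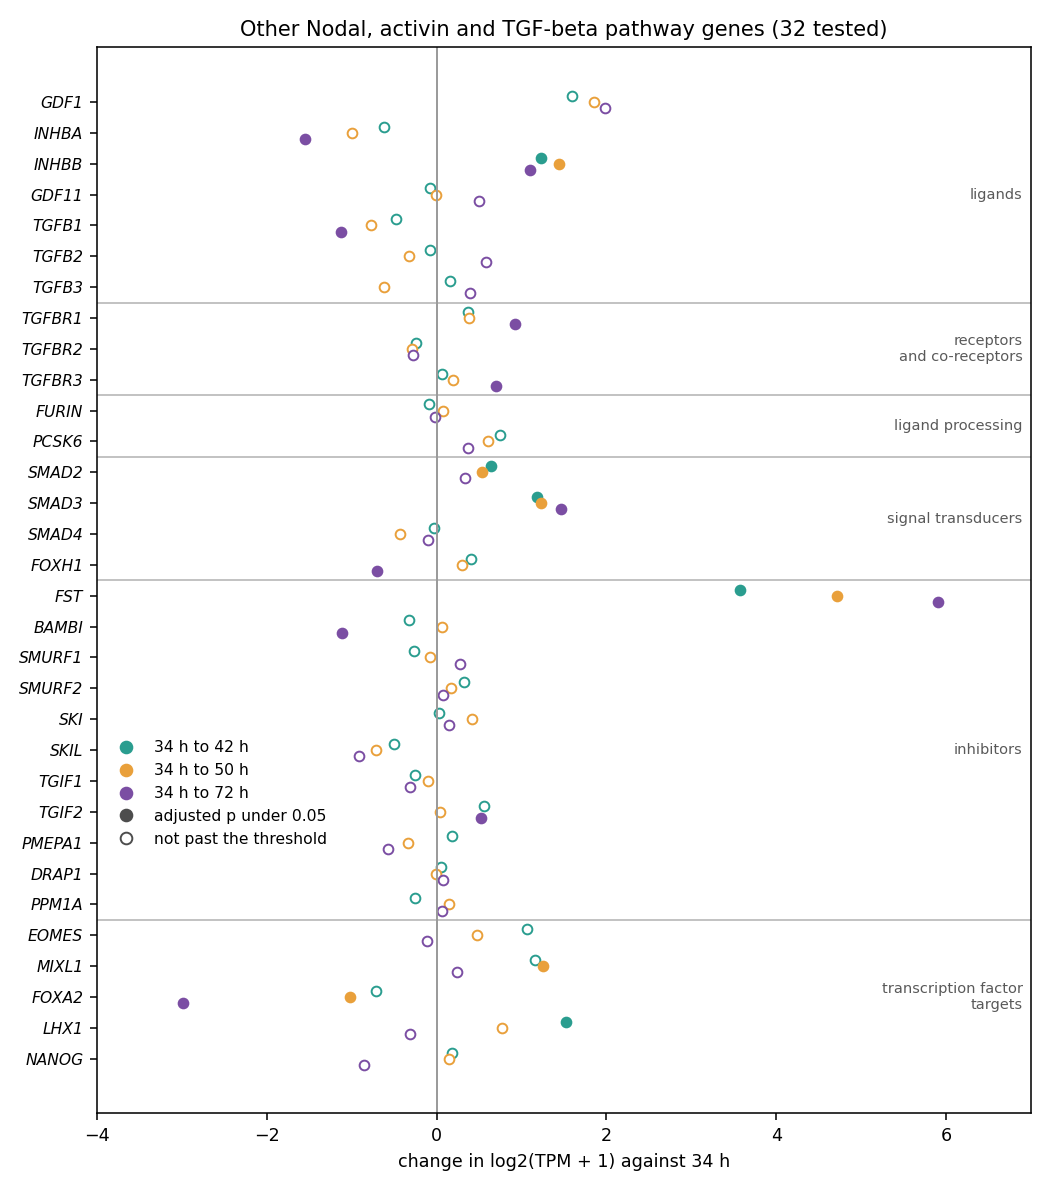
Change in log2(TPM + 1) against 34 h for the 32 tested genes among 38 others of the pathway, grouped by role; filled points have an adjusted p under 0.05 and open points do not. FST lies far to the right at 3.57, 4.71 and 5.90, and FOXA2 at 72 h lies furthest to the left at -2.99.

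Follistatin (FST), a secreted protein that binds and blocks activins, rose at every step. It was at 13.4 and 14.8 TPM (34 h), 181 and 175 TPM (42 h), 391 and 399 TPM (50 h) and 933 and 877 (72 h), with no overlap between time points. The log2 change was 3.57 ± 0.08 (SE) from 34 to 42 h (limma adjusted p = 1.20e-06) and 5.90 from 34 to 72 h (adjusted p = 2.00e-08). The step from 42 to 50 h, 1.14 (adjusted p = 0.00542), was not called without replicate 2 of 42 h or without replicate 1 of 50 h (0.0515 to 0.0670), or with the compared time points fitted alone (0.182). An antagonist of activins was therefore among the most abundant transcripts, ranked 147 to 151 by TPM at 72 h, while LEFTY1, LEFTY2 and CER1 were at or near 0. Of the 12 other inhibitors listed, 11 were tested. FST and TGIF2, a corepressor of SMAD-dependent transcription, were raised from 34 to 72 h and BAMBI, a decoy receptor, was lowered. Over all tested genes 12.7% were raised and 11.3% lowered, and 2 and 1 of 11 are too few to set apart from these shares. TGIF2 changed by 0.52 (adjusted p = 0.0348), a call lost without replicate 2 of 34 h or either 72 h library (0.113 to 0.189), with no filter (0.0630), with trimmed-mean rescaling (0.0537) and with no variance trend (0.0621). BAMBI changed by -1.11 (adjusted p = 0.0254), a call lost without either 34 h library or without replicate 1 of 72 h (0.0790 to 0.134).

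The activin subunit genes moved in opposite directions. INHBA fell from 2.03 and 2.52 TPM at 34 h to 0.0997 and 0.130 TPM at 72 h (-1.55 on the log2 scale; limma adjusted p = 0.00312). INHBB rose from 0.339 and 0.319 TPM to 2.76 and 1.57 TPM at 42 h (1.23; adjusted p = 0.0468) and was at 1.80 and 1.88 TPM at 72 h (1.10; adjusted p = 0.0163). INHBA reached 1 TPM in the 34 h and 42 h libraries alone, and INHBB in the later libraries alone. Each passed the filter through them. Against 34 h, a tested change could thus hardly be other than a fall for INHBA at 72 h and a rise for INHBB. The 42 h call of INHBB was lost without any 1 of the 8 libraries (0.0616 to 0.217) and with the replicate number as a block (0.0576), no filter (0.0742), quantile normalization (0.0529), these time points fitted alone (0.153) or Ensembl rows apart (0.0591). The 72 h call was lost without any 1 of the 4 libraries compared (0.0638 to 0.0779). TGFB1, a TGF-beta ligand, fell from 6.92 and 6.18 TPM to 2.49 and 2.46 TPM at 72 h (-1.12; adjusted p = 0.0101), a call lost without replicate 1 of 34 h or either 72 h library (0.0548 to 0.0618). Of the 7 other ligands listed, all of them tested, INHBB was the 1 raised from 34 to 42 h, where 1.78% of all tested genes were raised.

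The genes that carry the signal inside the cell were well expressed. SMAD2 went from 49.7 and 52.5 TPM at 34 h to 78.8 and 80.9 TPM at 42 h (0.64 on the log2 scale; limma adjusted p = 0.0187). Its mean was then 74.5 TPM at 50 h (0.54; adjusted p = 0.0224) and 65.0 TPM at 72 h, where it was not called against 34 h (0.34; adjusted p = 0.0515). SMAD3 went from 15.3 and 8.98 TPM to 27.5 and 28.4 TPM at 42 h (1.18; adjusted p = 0.0450) and to 33.9 and 34.0 TPM at 72 h (1.46; adjusted p = 0.00374). The 42 h call of SMAD2 was lost without any 1 of the 34 h and 42 h libraries (0.0981 to 0.131), with these time points fitted alone (0.0582) and with no variance trend (0.0542). Its 50 h call was lost without any 1 of the 34 h and 50 h libraries (0.0756 to 0.125), with those time points fitted alone (0.0766) and with no variance trend (0.0554). The 42 h call of SMAD3 was lost without replicate 2 of 34 h or any 1 of the 42 h and 72 h libraries (0.0939 to 0.220), and with no filter (0.134), no variance trend (0.0856), Ensembl rows apart (0.0594) or these time points fitted alone (0.145), whereas its 72 h call held with each library left out. FOXH1, the DNA-binding partner of these SMADs, was at 63.7 and 56.6 TPM at 34 h but 33.0 and 40.5 TPM at 72 h (-0.70; adjusted p = 0.0221), a call lost without either 34 h library or without replicate 1 of 72 h (0.0632 to 0.136) or with no filter (0.0535). SMAD4 was between 70.4 and 102 TPM and was not called against 34 h.

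Of 5 other receptors and co-receptors listed, 3 were tested and 2 were raised at 72 h, where 12.7% of all tested genes were raised. TGFBR1, a type I receptor for TGF-beta, went from 29.1 and 25.2 TPM at 34 h to 56.7 and 48.0 TPM at 72 h (0.92 on the log2 scale; limma adjusted p = 0.00158); the call held with each library left out. TGFBR3, a TGF-beta co-receptor, went from 2.75 and 2.67 TPM to 5.10 and 4.94 TPM (0.70; adjusted p = 0.0229), a call lost without any 1 of these 4 libraries (0.0803 to 0.104). TGFBR2, the type II receptor for TGF-beta, had means of 2.25 TPM at 34 h and 1.67 TPM at 72 h (-0.28; adjusted p = 0.370). ACVR1C, which can stand in for ACVR1B as a Nodal receptor, did not exceed 0.331 TPM and was not tested. CFC1, the other EGF-CFC co-receptor, was at 0.967 and 1.13 TPM at 34 h and listed at 0 in both 72 h libraries, and was not tested. It has a near copy, CFC1B, and the sum of both did not exceed 1.13 TPM. In both TDGF1 and CFC1 the 34 h libraries were the highest.

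Of 8 listed transcription factor targets, 5 were tested: from 34 to 42 h 1 rose (LHX1) and none fell, beside 1.78% raised and 0.792% lowered over all tested genes. From 34 to 50 h 1 rose (MIXL1) and 1 fell (FOXA2), beside 3.52% and 2.74%. From 34 to 72 h none rose and 1 fell (FOXA2), beside 12.7% and 11.3%, and 1 of 5 is too few to set apart from that share. Among those known from the primitive streak, EOMES and LHX1 had their highest mean at 42 h, as NODAL did, and MIXL1 at 50 h, all at a few TPM or less. EOMES was at 0.0551 and 0.104 TPM (34 h), 1.33 and 1.21 TPM (42 h) and 0.416 and 0.590 TPM (50 h), and was listed at 0 in both libraries of 72 h (1.07 on the log2 scale from 34 to 42 h; limma adjusted p = 0.0942). That EOMES change was called with no filter (0.00862) and with no variance trend (0.00639). LHX1 went from 0.448 and 0.174 TPM to 3.24 and 2.31 TPM at 42 h (1.52; adjusted p = 0.0236), a call lost without any 1 of these 4 libraries (0.0809 to 0.167), with these time points fitted alone (0.0804) and with 0.1 TPM added (2.87; 0.0866). MIXL1 went from 0.115 and 0.108 TPM to 1.47 and 1.81 TPM at 50 h (1.25; adjusted p = 0.0232), a call likewise lost without any 1 of the 4 libraries compared (0.0764 to 0.116) and with those time points fitted alone (0.0646). Its change from 34 to 42 h was 1.16 (adjusted p = 0.0552) and was called under 4 alternatives: 0.1 TPM added (0.0397), no filter (0.0183), no mitochondrial genes (0.0497) and no variance trend (0.00699). These genes are also known targets of WNT signals in the primitive streak, and the share of either pathway was not tested.

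The listed endoderm markers took different courses. FOXA2, a forkhead factor of endoderm and floor plate, fell from 11.9 and 13.4 TPM at 34 h to 7.02 and 7.73 TPM (42 h), 5.42 and 6.03 TPM (50 h), then 0.575 and 0.866 TPM (72 h) (-2.99 on the log2 scale from 34 to 72 h; limma adjusted p = 1.91e-05). That call held with each library left out, while the call from 34 to 50 h (-1.02; adjusted p = 0.0125) was lost without either 34 h library or without replicate 1 of 50 h (0.0598 to 0.105). SOX17, which defines definitive endoderm, was listed at 0 in all 8 libraries. CXCR4, a chemokine receptor also used as an endoderm marker, was at 1.13 and 1.73 TPM (34 h), 5.71 and 5.30 TPM (42 h), 2.04 and 2.64 TPM (50 h), then 6.33 and 7.21 TPM (72 h). It was called raised from 34 to 42 h (1.43; adjusted p = 0.0102), the interval in which NODAL rose, and from 34 to 72 h (1.68; adjusted p = 0.000922). GATA4 and GATA6, the remaining markers of that list, did not exceed 0.356 and 0.283 TPM. NANOG, a pluripotency factor that SMAD2 and SMAD3 are known to maintain, was at 2.46 and 1.59 TPM at 34 h but 0.380 and 0.983 TPM at 72 h (-0.86; adjusted p = 0.0576).

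**Figure D4:**
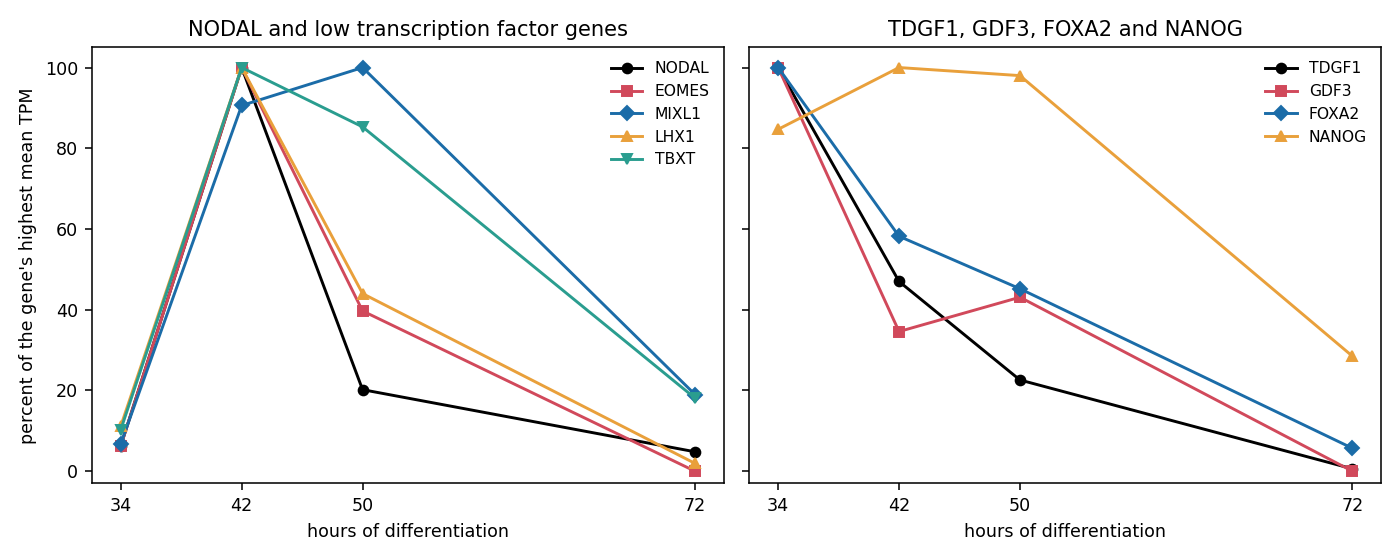
Mean TPM at each time point as a percent of the gene's own highest mean, for NODAL, TDGF1, GDF3 and genes of the listed targets and markers, against hours of differentiation. NODAL, EOMES, LHX1 and TBXT are highest at 42 h and MIXL1 at 50 h, while TDGF1, GDF3 and FOXA2 are highest at 34 h.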

How the data were processed

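Poly(A) RNA of 8 libraries was measured. The authors deposited 1 table of TPM values per Ensembl gene; the submitters' processing notes name Salmon 1.9.0 and the build GRCh38, and the annotation release is not given in the sources used here. The table had 37951 rows. Rows of the same symbol were summed (1034 symbols; no member had more than 1 row), which left 35940 symbols. TPM carries no depth. A gene was tested if 2 or more libraries had at least 1 TPM: log2(TPM + 1) was fitted with limma 3.58.1 in R 4.3.3, with 1 mean per time point, a trended moderated variance and all 8 libraries, two-sided, with Benjamini-Hochberg adjustment over all 14908 genes and a threshold of 0.05. The code was tested on simulated data. Groups, times and doses came from the labels.

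The members, the gene lists and the tests were chosen with earlier results of these data known. Named were the 10 members, the listed pathway genes called in a contrast with 34 h together with listed genes at low levels or of the same role, and, the 3 genes most correlated with NODAL and with TDGF1; the rule covered NODAL, LEFTY1, TDGF1 and CER1, where that member itself reached a mean of 5 TPM at some time point, which LEFTY1 and CER1 did not. The values of some listed genes are not reported here. The replicate number is a batch number in the labels, from which the pairing comes. Deviations of same-numbered libraries correlated at 0.0949 (34 and 42 h), 0.195 (34 and 50 h), 0.142 (42 and 50 h), -0.0445 (34 and 72 h), -0.0779 (42 and 72 h) and -0.104 (50 and 72 h). Alternatives were another pseudocount, no filter or a mean of at least 5 TPM, a trimmed-mean rescaling, quantile normalization, no mitochondrial genes, no variance trend, the replicate block, each library left out, the compared time points alone, and Ensembl rows apart. Promoter sequences are from RefSeq (GRCh38.p14) and gene positions from GENCODE (GRCh38).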

Additional observations from a re-analysis of the deposited data

How the results depend on the processing

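Of the 5 changes called among members, 4 kept their call and direction under every alternative that tested them; the exception was GDF3 from 34 to 72 h, lost without replicate 2 of 34 h. A filter on a mean of at least 5 TPM left NODAL, GDF3 and SMAD7 untested, so that 1 member was called from 34 to 72 h and 1 at any time; from 34 to 42 h it called TDGF1 (0.0365) in place of NODAL. The number of members called from 34 to 42 h was 2 with the replicate block, 2 with the compared time points alone and 1 to 2 with a library left out (2 without either 72 h library). From 34 to 72 h it was 1 to 3 with a library left out (1 without replicate 2 of 34 h). From 42 to 50 h it was 1 with the trimmed-mean rescaling and 1 with no variance trend. From 50 to 72 h it was 3 with a pseudocount of 0.1 and 2 with no variance trend. At any time it was 2 to 4 with a library left out. The replicate block changed no member's call beyond those of TDGF1 from 34 to 42 h, ACVR2A from 34 to 72 h, and, over the course, ACVR2A (called with it) and GDF3 (not called with it). Among the listed pathway genes it ended 4 of 30 calls: INHBB from 34 to 42 h (0.0576), and BAMBI (0.0612), MIXL1 (0.0697) and LHX1 (0.0674) from 50 to 72 h. Of those 30 calls, 13 were lost with the compared time points alone, 7 with no filter, 5 with no variance trend, 5 with Ensembl rows apart, 4 with quantile normalization, 2 with a pseudocount of 0.1 and 1 with the trimmed-mean rescaling. Of 130 uncalled changes of those genes, 11 were called under at least 1 alternative. Of 615 alternative values of members, 14 changed sign, all uncalled with sizes up to 0.39 on the log2 scale: the change of ACVR2B from 34 to 50 h was -0.01 with the trimmed-mean rescaling and -0.03 with quantile normalization, and with a library left out ranged from -0.13 to 0.21. Other ranges that crossed 0 with a library left out were -0.24 to 0.11 (ACVR2B, 34 to 42 h), -0.13 to 0.35 (GDF3, 42 to 50 h), -0.02 to 0.11 (ACVR1B, 34 to 42 h), -0.55 to 0.39 (ACVR2A, 34 to 50 h), -0.09 to 0.85 (ACVR2A, 42 to 50 h), -0.75 to 0.15 (SMAD7, 42 to 50 h) and -0.01 to 0.32 (SMAD7, 50 to 72 h). Causes of these shifts were not tested. With depth unknown, the counting error of low levels could not be computed, and 2 libraries a time point limit every comparison.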

Other observations

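GDF1, a ligand related to GDF3, was listed at 0 in 5 of the 8 libraries and stood at 8.06 TPM in replicate 1 of 42 h, 12.1 TPM in replicate 1 of 50 h and 14.6 TPM in replicate 2 of 72 h. CERS1, a ceramide synthase whose transcript can also carry GDF1, was at 15.3, 19.0 and 11.8 TPM in those 3 libraries and between 21.7 and 29.5 TPM in the other 5. The split of reads between these overlapping genes is uncertain, and GDF1 is 1 of the 32 tested pathway genes behind the counts and medians of that list, where it was not called in any contrast.

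Markers of extra-embryonic cells were read beside the members. CDX2 was at 0.0395 and 0 TPM (34 h), 8.92 and 6.47 TPM (42 h), 5.94 and 6.73 TPM (50 h), then 0.370 and 2.16 TPM (72 h). It is also a marker of caudal progenitors. KRT7, the most abundant of the 5, went the other way, with means of 37.8, 25.1, 20.8 and 6.22 TPM at the 4 time points (34 to 72 h: -2.44 on the log2 scale; limma adjusted p = 7.99e-05). HAND1 was at 0.833 and 0.778 TPM at 42 h, at 0.134 and 0.0593 TPM at 50 h, and listed at 0 in the other 4 libraries. TFAP2A did not exceed 0.795 TPM, and GATA3 was listed at 0 in 7 of the 8 libraries.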
